A study of Mus musculus with 20 samples.

Results

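The interferon-stimulated genes described here are 37 mouse genes that cells switch on when interferon reaches them, taken by gene symbol from a list and found in the count table by their Ensembl identifiers. All 37 were found among the 57010 genes of the table. They were followed in 2 organs, the liver and the kidney, of 10 male mice of the UM-HET3 cross, a genetically heterogeneous stock in which no animal is a copy of another, which gave 20 RNA-seq libraries. The 7c group held 6 mice that received a mixture of 7 small molecules from a pump under the skin for 28 days (valproate at 1 mg/kg/day, and repsox, tranylcypromine, DZNep, CHIR99021, forskolin and TTNPB at 0.1 mg/kg/day each), and the vehicle group held 4 mice whose pumps contained solvent alone. Both groups were 12 months old when the pumps went in, both had the surgery and the DMSO and PEG300 solvent, and all mice were housed alone afterwards. The data therefore answer 3 questions on these genes, namely how their level differed between liver and kidney, whether 7c changed it, and how it varied from mouse to mouse.

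Type I and type III interferons bind receptors that act through the kinases JAK1 and TYK2, and phosphorylated STAT2 joins IRF9 in a complex that binds the interferon-stimulated response element (ISRE). Interferon gamma uses its own receptor and acts through the gamma-activated site (GAS). The genes switched on in this way block viral entry, translation and budding, sense foreign nucleic acid, or feed back on the pathway itself. Many of them also have a basal level in tissue without infection, and in liver they are made by hepatocytes as well as by the resident macrophages, the Kupffer cells.

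The promoters of the members are shown first, since the choice of members made no use of their sequence. RefSeq promoter windows (build GRCm38.p6, from 250 bases before to 50 after a start) were given for 28 of the 37 members. The core of the ISRE was searched as GAAANNGAAA or, on the other strand, TTTCNNTTTC, and it was found in 17 of the 28 members, beside 3.99% of the 27025 genes with a window of the same length. In the 250 bases before the start alone the count was 16, beside 3.46% of genes. The GAS motif TTCNNNGAA, which reads the same on both strands, was present in 5 members, beside 9.55% of genes. Of the members with the ISRE core, 8 held 1 match, 8 held 2 and Isg15 held 3 that overlap one another. The 150 bases before the start of 8 members are printed because the results turn on these genes. Each is written 5′ to 3′ on the strand of the gene, and capitals mark ISRE core matches.
Isg15: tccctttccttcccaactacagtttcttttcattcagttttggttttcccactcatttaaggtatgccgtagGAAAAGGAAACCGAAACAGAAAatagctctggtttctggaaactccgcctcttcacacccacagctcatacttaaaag
Bst2: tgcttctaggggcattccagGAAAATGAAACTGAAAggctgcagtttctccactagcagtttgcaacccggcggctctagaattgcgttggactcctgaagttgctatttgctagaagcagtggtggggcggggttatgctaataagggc
Ifit1: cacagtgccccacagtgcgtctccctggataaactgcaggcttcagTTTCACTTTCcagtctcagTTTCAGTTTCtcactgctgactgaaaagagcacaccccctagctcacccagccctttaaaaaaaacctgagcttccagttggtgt
Ifi44: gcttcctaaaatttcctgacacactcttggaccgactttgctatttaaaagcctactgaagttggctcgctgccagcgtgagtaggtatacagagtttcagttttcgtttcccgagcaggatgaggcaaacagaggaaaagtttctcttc
Rsad2: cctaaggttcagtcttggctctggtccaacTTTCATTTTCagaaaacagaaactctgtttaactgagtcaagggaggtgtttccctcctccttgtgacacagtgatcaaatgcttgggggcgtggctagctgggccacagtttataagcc
Oas1a: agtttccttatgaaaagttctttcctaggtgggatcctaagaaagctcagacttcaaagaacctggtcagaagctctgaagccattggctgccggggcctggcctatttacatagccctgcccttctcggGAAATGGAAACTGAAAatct
Oas1g: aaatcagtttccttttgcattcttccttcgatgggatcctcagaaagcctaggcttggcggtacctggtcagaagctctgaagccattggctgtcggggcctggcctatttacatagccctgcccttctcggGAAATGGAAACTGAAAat
Igtp: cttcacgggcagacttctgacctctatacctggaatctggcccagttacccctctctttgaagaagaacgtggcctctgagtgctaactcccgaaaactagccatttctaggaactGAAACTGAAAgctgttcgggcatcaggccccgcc
In GRCm38.p6 these stretches lie at chr4:156200819-156200968, minus strand (Isg15), chr8:71537473-71537622, minus strand (Bst2), chr19:34640739-34640888, plus strand (Ifit1), chr3:151749911-151750060, minus strand (Ifi44), chr12:26456453-26456602, minus strand (Rsad2), chr5:120907526-120907675, minus strand (Oas1a), chr5:120887614-120887763, minus strand (Oas1g) and chr11:58199406-58199555, plus strand (Igtp). Counting back from the start, the matches of Isg15 begin 78, 72 and 66 bases before it, those of Bst2 at 130 and 124, and those of Ifit1, which are on the other strand, at 104 and 85. Oas1a and Oas1g, neighbouring copies of one gene, share an unbroken run of 56 of these 150 bases, which holds both of their matches, at 20 and 14 bases and at 18 and 12 bases before the start. The near copies Ifit3 and Ifit3b likewise both hold a pair of matches 34 bases apart, whose nearer match begins 122 bases before the start in Ifit3 and 154 in Ifit3b. The window of Ifi44 held neither motif in these letters. The windows of Usp18, Oas2, Mx1, Mx2, Rtp4, Zbp1, Dhx58, Parp14 and Ifi27l2a were not analysed here.

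The depth was 28383359 to 34153084 counts per liver library and 27855849 to 64872451 per kidney library. The labelled tissues were checked with marker genes. The summed level of 6 hepatocyte markers was 88351 to 110541 CPM in vehicle liver and 86754 to 128426 CPM in 7c liver, against 173 to 274 CPM and 77.7 to 283 CPM in kidney. The summed level of 6 markers of kidney epithelium was 8448 to 9271 CPM and 8094 to 10024 CPM in vehicle and 7c kidney, and 0.503 to 2.14 CPM over the livers. Here and below CPM (the count divided by the library size, in the usual unit) is on the TMM scale of all 20 libraries. Some libraries stood apart from the rest. The liver of 7c mouse 6 held 822 CPM of 6 skeletal muscle markers, beside at most 2.51 CPM in any other liver. The kidneys of 7c mouse 5 and vehicle mouse 2 had a lower balance of long against short transcripts. For this the log2 level of each gene was taken relative to its own median over the libraries of the tissue. The balance is the median of these values over protein-coding genes with over 6000 exonic bases, less that of genes with under 1500. It was -0.69 and -0.64 in these kidneys and -0.24 to 0.38 in the other 8 kidneys.

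The members spanned a wide range of levels, and the order differed between the tissues. Levels of different genes are compared as CPM per kilobase of exon. In vehicle liver Bst2 (tetherin, which holds budding virus at the cell surface; chr8:71986895-71990114 in GRCm39) stood first at 166 ± 31.3 CPM per kilobase (mean ± SD, n = 4). It was followed by Stat2 at 15.9 ± 2.07, Isg15 at 13.7 ± 3.77, Lgals3bp (a secreted glycoprotein) at 12.8 ± 0.418, Irgm1 at 9.29 ± 1.18 and Igtp at 8.44 ± 0.633 CPM per kilobase. Among these, Stat2, Isg15 and Lgals3bp differed by less than the SD of Isg15. In vehicle kidney Bst2 was again first at 7.10 ± 3.45 CPM per kilobase, but Lgals3bp at 6.81 ± 0.856 lay within its SD, and Irgm1 came next at 4.44 ± 0.863. Oas3 was the lowest member in both tissues, at 0.0766 ± 0.0442 CPM per kilobase in vehicle liver and 0.0168 ± 0.0162 in vehicle kidney. It was at 0 counts in the kidney of vehicle mouse 2. Bst2 made up 21.3% to 30.1% of the summed CPM of the 37 members in vehicle liver and 2.77% to 6.57% in vehicle kidney. That sum was 713 to 891 CPM in vehicle liver and 194 to 254 CPM in vehicle kidney. In the 7c group it was 790.0 to 989.9 CPM in liver and 219 to 256 CPM in kidney, so that every liver was above every kidney.

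**Figure D1:**
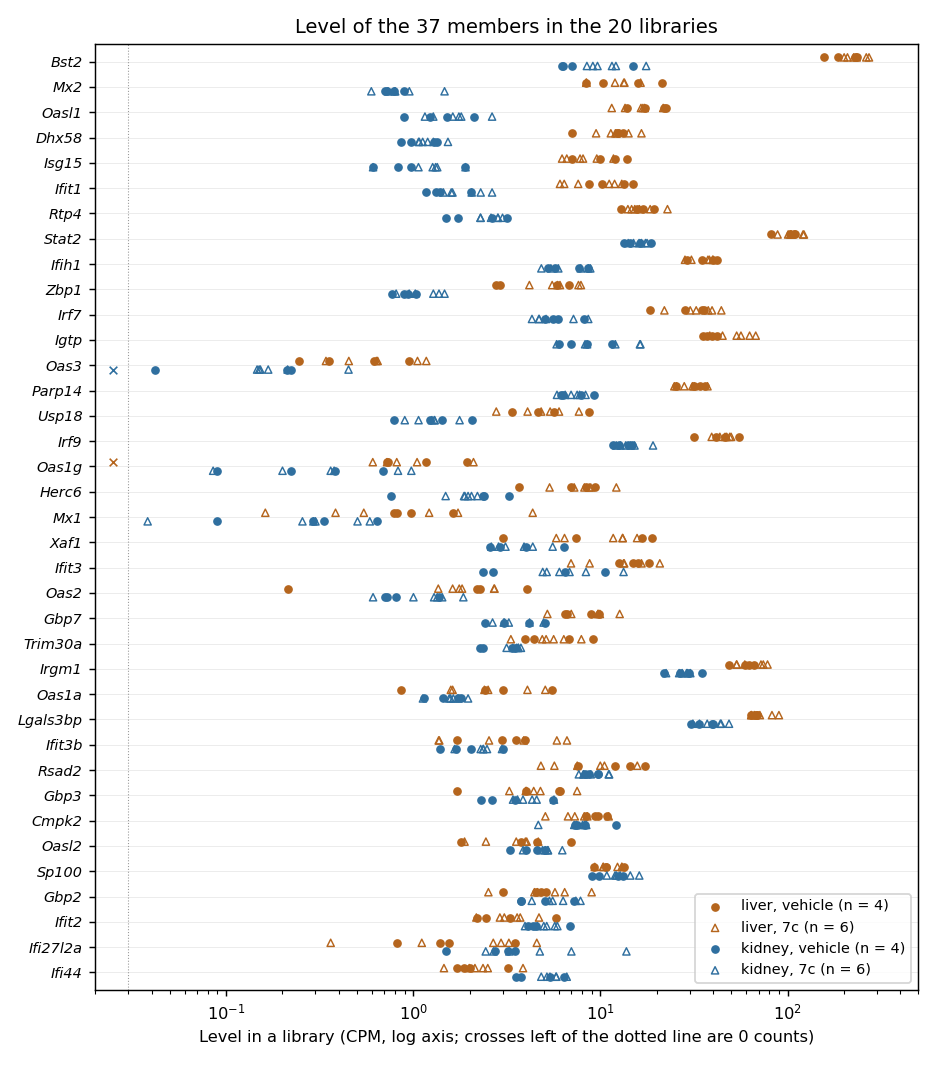
Level of the 37 members in each library, in CPM on a log axis, with 1 row per member ordered by the liver against kidney difference in vehicle mice. Brown points are livers and blue points kidneys, filled circles are the 4 vehicle mice and open triangles the 6 7c mice, and crosses at the left edge stand for 0 counts. Bst2 at the top has livers at 156 to 235 CPM (vehicle) against kidneys at 6.26 to 14.9 CPM, while Ifi44 at the bottom has kidneys above livers.

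Liver held more of most of these transcripts than kidney. In the 4 vehicle mice 23 of the 37 members (62.2%) were higher in liver at an adjusted p under 0.05 (edgeR's quasi-likelihood test, Benjamini-Hochberg over all 17245 genes tested), 1 was lower and 13 were not called. Over all genes tested 25.7% were called higher and 27.7% lower. The median log2 fold change was 1.63 over the members and -0.06 over all genes. The 6 7c mice, which share no library with the vehicle mice, gave 25 members higher (67.6%), 3 lower and 9 not called, beside 30.9% and 34.8% of 17117 genes, and a median of 1.54 beside -0.08. All 23 members called higher in vehicle mice were among the 25 called in 7c mice, which added Oas1a and Oas3. Ifi44 was lower in both sets of mice, and Ifit2 and Oasl2 were called lower in 7c mice alone, a difference between the sets that the interaction test of Ifit2 and Oasl2 did not call (adjusted p = 1.00 and 1.00). The 4 vehicle livers lay wholly above the 4 vehicle kidneys for 24 members and wholly below for 1, beside 25.1% and 28.1% of all genes. In the 7c mice the counts were 20 and 1, beside 22.9% and 24.9%. All these values are relative to the scaling of 2 unlike tissues. With total counts in place of TMM the median of all genes moved to -0.66 in vehicle mice and -0.70 in 7c mice, and the split of higher against lower calls became 16 against 4 in vehicle mice and 20 against 9 in 7c mice. The shares of all genes given above are those with TMM, and the shares with total counts are not given here. In a bulk sample, fewer cells of a type and less RNA per cell cannot be told apart. The names of all liver libraries and of no kidney library end in the letter r, whose meaning is not known here. The series of the library and its tissue therefore cannot be told apart.

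**Figure D2:**
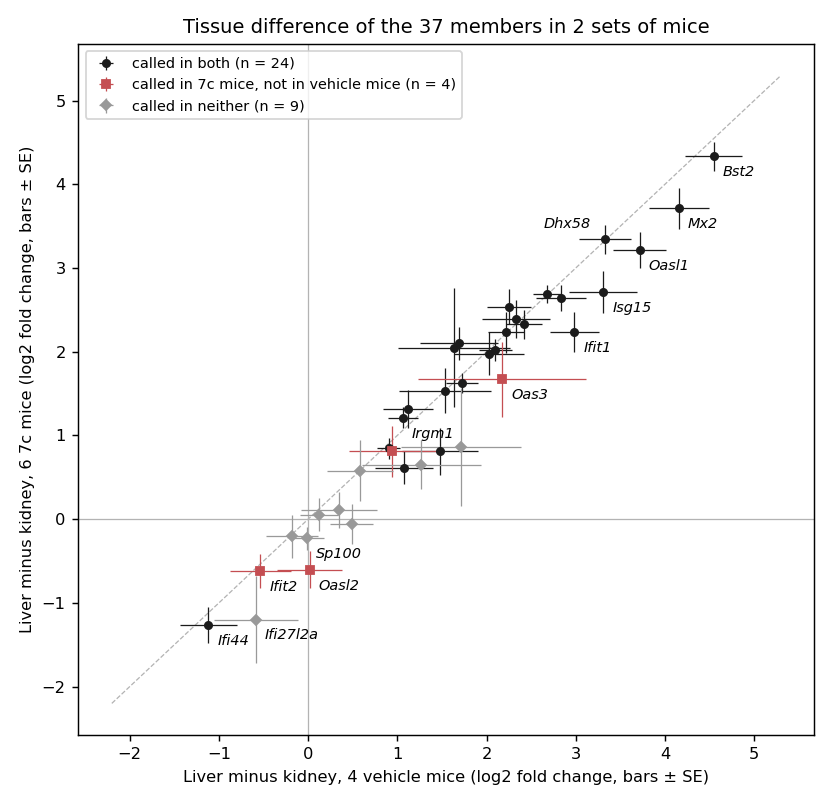
Liver minus kidney difference of each member on the log2 scale in the 4 vehicle mice (x axis) and in the 6 7c mice (y axis), bars ± SE from the fit, with the dashed line marking equal values. Black circles are the 24 members called in both sets of mice, red squares the 4 called in 7c mice alone and grey diamonds the 9 called in neither. Bst2 and Mx2 lie at the upper right and Ifi44 at the lower left, and with total counts in place of TMM all points move down by about the shift of the median of all genes.

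The transcription factors of the pathway were higher in liver in all 3 cases. Stat2, the subunit of the ISRE-binding complex that carries its activation domain, was at 108, 102, 109.7 and 81.6 CPM in the vehicle livers and at 13.3, 14.5, 16.3 and 18.7 CPM in the vehicle kidneys. Every liver was above every kidney. Its log2 fold change was 2.68 ± 0.16 (SE) in vehicle mice and 2.69 ± 0.11 in 7c mice. Irf9, its DNA-binding partner, had log2 fold changes of 1.73 ± 0.18 and 1.62 ± 0.12, and Irf7, the factor that amplifies interferon production, of 2.25 ± 0.25 and 2.54 ± 0.21. All 6 of these had an adjusted p of 1.55e-05 or less. Irf9 and its neighbour Rnf31 overlap on the same strand and Irf7 and Phrf1 on opposite strands, and how reads of the overlap were counted is not given in the sources used here.

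Isg15, a ubiquitin-like protein that is attached to newly made proteins (chr4:156283883-156285303 in GRCm39), belonged to the members with the largest difference. Its levels were 7.01, 9.94, 13.9 and 11.9 CPM in the vehicle livers and 0.831, 1.88, 0.976 and 0.612 CPM in the vehicle kidneys, without overlap. In 7c mice they ran from 6.24 to 11.7 CPM (median 7.93) in liver and from 0.610 to 1.90 CPM (median 1.29) in kidney. The log2 fold change was 3.31 ± 0.38 (adjusted p = 2.49e-05) in vehicle mice and 2.71 ± 0.25 (adjusted p = 1.35e-07) in 7c mice. The ligase Herc6, which attaches Isg15 in mice, had 1.69 ± 0.43 and 2.10 ± 0.20, and Usp18, which removes it and restrains the receptor, 2.02 ± 0.39 and 1.98 ± 0.26 on the same scale. The call for Herc6 in vehicle mice was lost with total counts.

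The 4 IFIT genes, which encode proteins that bind foreign RNA and block its translation and which lie side by side on chromosome 19, were not all called in the same direction. Ifit1 was at 13.3, 15.0, 8.69 and 10.2 CPM in the vehicle livers and 1.33, 1.39, 2.04 and 1.17 CPM in the vehicle kidneys, 7.92-fold higher in liver (log2 2.99 ± 0.28, adjusted p = 4.34e-06). Ifit2, of the same cluster, was at 2.45, 3.28, 5.79 and 2.20 CPM in the livers and 4.36, 4.52, 6.88 and 4.12 CPM in the kidneys. The groups overlap, since the liver of vehicle mouse 3 was above 3 of the kidneys. The log2 fold change of Ifit2 was -0.53 ± 0.35 (adjusted p = 0.219) in vehicle mice and -0.62 ± 0.20 (adjusted p = 0.0131) in 7c mice, where the call was lost without 7c mouse 6. Ifit3 was higher in liver at 1.48 ± 0.43 (adjusted p = 0.0126) and 0.81 ± 0.28 (adjusted p = 0.0176), a call lost with total counts, without vehicle mouse 1, and in the other set without 7c mouse 1 or 6. Ifit3b, at 0.58 ± 0.37 and 0.58 ± 0.36, was not called in either set, and in vehicle mice its sign turned with total counts and it was called higher without vehicle mouse 3. Ifit3 and Ifit3b are near copies, and how reads that match both were counted is not given in the sources used here, so the split between them is uncertain. Ifit1 also overlaps Ifit1bl2 on the opposite strand.

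The OAS family, whose synthetases make the oligoadenylate that activates RNase L, spanned log2 fold changes of 0.02 to 3.72 between the vehicle tissues. Oasl1, a synthetase-like gene that restrains translation of Irf7, was at 13.9, 22.5, 21.9 and 17.4 CPM in the vehicle livers and 0.893, 1.52, 2.10 and 1.22 CPM in the vehicle kidneys, and no library overlapped. Its log2 fold change was 3.72 ± 0.30 (adjusted p = 1.27e-06) in vehicle mice and 3.21 ± 0.22 (adjusted p = 2.71e-09) in 7c mice. Oasl2, next to it on chromosome 5, was at 1.79, 4.59, 6.93 and 3.76 CPM in the livers and 3.28, 5.06, 4.58 and 3.98 CPM in the kidneys. Its lowest value and its highest were both livers. The log2 fold change of Oasl2 was 0.02 ± 0.37 (adjusted p = 0.975) in vehicle mice, where the sign depended on the setting, and -0.60 ± 0.22 (adjusted p = 0.0266) in 7c mice, where the call was lost without 7c mouse 2, 4 or 6. Neither window of Oasl1 and Oasl2 held the ISRE core. The other 4 were expressed at low levels. Oas1a had 0.94 ± 0.49 (adjusted p = 0.127) and 0.81 ± 0.30 (adjusted p = 0.0282), and the call in 7c mice was lost with total counts and without 7c mouse 1, 2 or 3. Oas1g had 1.71 ± 0.67 (adjusted p = 0.0513) and 0.86 ± 0.70 (adjusted p = 0.291) and reached at most 2.10 CPM in any library. It was called higher in vehicle liver under 5 of 12 alternatives (DESeq2, limma-voom, the likelihood ratio test, filterByExpr and without vehicle mouse 1). Oas2 had 1.27 ± 0.67 and 0.65 ± 0.29 (adjusted p = 0.133 and 0.0638). Oas3 had 2.18 ± 0.94 (adjusted p = 0.0733) and 1.67 ± 0.45 (adjusted p = 0.00389) from 0 to 37 counts per kidney. Oas2 was called higher under 3 of 14 alternatives in 7c mice (limma-voom, the likelihood ratio test and without 7c mouse 5) and under 1 of 12 in vehicle mice (without vehicle mouse 4), and Oas3 under 2 of 10 in vehicle mice (limma-voom and the likelihood ratio test). Oas1a overlaps Oas1d on the opposite strand. Reads of Oas1a and Oas1g may be exchanged between the copies, as for the Ifit3 pair.

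Both Mx genes, dynamin-like GTPases that trap viral nucleoproteins, were called higher in liver. Mx2 was at 10.3, 21.2, 15.9 and 8.34 CPM in the vehicle livers and 0.706, 0.895, 0.785 and 0.724 CPM in the vehicle kidneys. The highest kidney was well below the lowest liver, and the difference was 17.8-fold (log2 4.16 ± 0.34, adjusted p = 1.36e-06) in vehicle mice and 13.1-fold (log2 3.71 ± 0.25, adjusted p = 2.92e-09) in 7c mice. Mx1 was scarce, at 0.979, 1.64, 0.793 and 0.817 CPM in the livers and 0.291, 0.0895, 0.637 and 0.334 CPM in the kidneys, and its log2 fold changes of 1.63 ± 0.63 (adjusted p = 0.0481) and 2.05 ± 0.71 (adjusted p = 0.0184) held under 5 of 12 alternative settings in vehicle mice and 10 of 14 in 7c mice. In 7c mice the call was lost with limma-voom, the replicate block and total counts, and without 7c mouse 6, whose liver had the highest Mx1 level (4.35 CPM) and the skeletal muscle transcripts. All 3 sensors of nucleic acid were higher in liver. Dhx58 (LGP2, a regulator of the RNA helicase sensors) was at 7.01, 13.2, 12.5 and 12.4 CPM in the vehicle livers and 0.977, 1.34, 1.29 and 0.863 CPM in the vehicle kidneys. The liver of vehicle mouse 1 was the lowest of the livers and was above every kidney. Its log2 fold changes were 3.32 ± 0.29 (adjusted p = 2.49e-06) and 3.34 ± 0.18 (adjusted p = 1.35e-10). Ifih1 (MDA5, a sensor of long double-stranded RNA) had 2.42 ± 0.20 and 2.33 ± 0.17, and Zbp1, a sensor of Z-form nucleic acid, 2.33 ± 0.38 and 2.39 ± 0.23, all with an adjusted p of 3.43e-04 or less.

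The GTPases, which interferon gamma strongly induces and which attack vacuoles of intracellular pathogens, were called higher in liver for 3 of 5. Igtp (chr11:58089840-58098417 in GRCm39) was at 39.6, 41.9, 35.2 and 37.2 CPM in the vehicle livers and 8.52, 6.02, 11.5 and 6.99 CPM in the vehicle kidneys, 4.65-fold higher in liver (log2 2.22 ± 0.20, adjusted p = 3.80e-06). Igtp overlaps Irgm2 on the same strand. Irgm1 had 1.06 ± 0.17 (adjusted p = 2.72e-04) and Gbp7 1.12 ± 0.28 (adjusted p = 0.00597), and in 7c mice the values were 1.21 ± 0.12 and 1.32 ± 0.23 (adjusted p = 3.30e-07 and 1.07e-04). The call for Gbp7 in vehicle mice was lost with total counts. Gbp2, at 4.53, 3.02, 4.83 and 5.11 CPM in the livers and 3.76, 5.06, 7.24 and 3.76 CPM in the kidneys, and Gbp3, at 1.71, 6.05, 6.03 and 4.01 CPM and 2.31, 2.64, 5.56 and 3.51 CPM, overlapped between the tissues. Their log2 fold changes were -0.18 ± 0.29 and 0.35 ± 0.42 in vehicle mice (adjusted p = 0.635 and 0.518) and -0.20 ± 0.26 and 0.11 ± 0.21 in 7c mice (adjusted p = 0.502 and 0.682), and the signs of both turned under some settings. Guanylate-binding proteins form a cluster of similar genes on chromosome 3, so reads may be exchanged between them.

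Among the remaining 11 effectors Bst2 had the largest tissue difference of all 37 members in both sets of mice. It was at 156, 185, 230.5 and 235 CPM in the vehicle livers and 6.30, 14.9, 7.05 and 6.26 CPM in the vehicle kidneys. In 7c mice the range was 200.5 to 272 CPM (median 229.8) in liver and 8.47 to 17.5 CPM (median 10.6) in kidney. The difference was 23.4-fold (log2 4.55 ± 0.32, adjusted p = 4.54e-07) in vehicle mice and 20.2-fold (log2 4.33 ± 0.17, adjusted p = 6.28e-12) in 7c mice. Rtp4, which binds and holds back a flaviviral replication complex, had 2.83 ± 0.28 and 2.64 ± 0.15, and Parp14, an ADP-ribosyltransferase, 2.10 ± 0.19 and 2.02 ± 0.13 on the log2 scale, each with an adjusted p of 6.54e-06 or less. Rtp4 overlaps Masp1 on the opposite strand. Xaf1, a partner of the apoptosis inhibitor XIAP, had 1.53 ± 0.51 (adjusted p = 0.0264) and 1.54 ± 0.27 (adjusted p = 1.08e-04). Its vehicle livers ran from 3.02 to 18.9 CPM, and the vehicle call held under 7 of 12 settings (lost with limma-voom, with total counts and without vehicle mouse 2, 3 or 4). Trim30a, a tripartite motif protein of a family of similar genes, had 1.08 ± 0.32 (adjusted p = 0.0149) and 0.62 ± 0.19 (adjusted p = 0.0110). It lost the vehicle call without vehicle mouse 2 and with total counts, which turned its sign in 7c mice. Lgals3bp had 0.91 ± 0.13 and 0.85 ± 0.12 (adjusted p = 1.20e-04 and 1.88e-05), calls that were lost with total counts.

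Ifi44, a GTP-binding-like protein of uncertain mechanism, ran the other way. It was at 1.88, 3.21, 2.00 and 1.70 CPM in the vehicle livers and 5.36, 3.54, 6.39 and 3.79 CPM in the vehicle kidneys, and in 7c mice at 1.46 to 3.86 CPM (median 2.25) in liver and 4.83 to 6.61 CPM (median 5.59) in kidney. Every liver was below every kidney in both sets of mice. The log2 fold change was -1.12 ± 0.32 (adjusted p = 0.0116) in vehicle mice and -1.27 ± 0.21 (adjusted p = 8.51e-05) in 7c mice, and the vehicle call was lost without vehicle mouse 1 (adjusted p = 0.0771) or mouse 3 (adjusted p = 0.0814). Rsad2 (viperin, which makes a nucleotide that stops viral polymerases) and Cmpk2 (a mitochondrial nucleotide kinase), which are neighbours on chromosome 12, did not separate the tissues. Rsad2 was at 14.4, 11.9, 17.4 and 7.60 CPM in the vehicle livers and 9.77, 8.28, 9.76 and 8.69 CPM in the vehicle kidneys. The livers spread on both sides of the narrow range of the kidneys. The log2 fold change of Rsad2 was 0.49 ± 0.24 (adjusted p = 0.109) and -0.06 ± 0.24 (adjusted p = 0.849), and that of Cmpk2 0.12 ± 0.21 (adjusted p = 0.660) and 0.05 ± 0.20 (adjusted p = 0.828). Sp100, a nuclear body protein, had -0.01 ± 0.19 and -0.23 ± 0.13 (adjusted p = 0.961 and 0.145). Ifi27l2a, a small mitochondrial protein, had -0.58 ± 0.47 and -1.20 ± 0.52 (adjusted p = 0.319 and 0.0535). A p above the threshold does not show that the tissues were alike for these genes. With total counts Cmpk2, Gbp2, Gbp3, Ifi27l2a, Rsad2 and Sp100 were called lower in 7c liver, and Gbp2, Ifit2 and Sp100 in vehicle liver. Ifi27l2a was called lower in 7c liver under 6 of 14 alternatives, which were RLE size factors, DESeq2, the likelihood ratio test, no filter, total counts and the fit without 7c mouse 1. Rsad2 was called higher in vehicle liver without vehicle mouse 4.

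The ISRE core was found among called and uncalled members. Of the 23 members called higher in vehicle liver, 16 had a window and 10 of these held the ISRE core, beside 7 of 11 members that were not called. Isg15, Bst2 and Ifit1 held 2 or 3 matches and were among the 6 with the largest difference, yet Oas1a and Oas1g held 2 and were not called in vehicle mice, and Oasl1 held none.

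Other cell types differed between the tissues in the same libraries. Of 12 macrophage markers 11 were tested, and 9 were called higher in vehicle liver and 10 in 7c liver, beside 25.7% and 30.9% of all genes. Csf1r ran the other way, with log2 -0.61 ± 0.26 (adjusted p = 0.0683, edgeR) in vehicle mice and -0.55 ± 0.20 (adjusted p = 0.0239), a lower call, in 7c mice. The summed level of the 12 markers was 311 to 553 CPM in vehicle liver and 273 to 571 CPM in 7c liver, against 96.0 to 132 CPM and 88.9 to 131 CPM in kidney. Clec4f, which marks Kupffer cells, was at 107 ± 37.1 CPM in vehicle liver and 0.0320 ± 0.0401 CPM in vehicle kidney (mean ± SD, n = 4), and Marco, another macrophage marker, was at 0 counts in all 10 kidneys. The sum of 12 T and NK cell markers was 4.19 to 6.08 CPM and 3.35 to 6.94 CPM in vehicle liver and kidney, and that of 7 B and plasma cell markers 4.90 to 17.9 CPM and 17.0 to 70.6 CPM. Cd4, of the T and NK list, was at 2.72 ± 0.795 CPM in vehicle liver and 0.564 ± 0.414 CPM in vehicle kidney. Among the 8 T and NK cell markers tested in vehicle mice 6 had values below 0, with a median log2 of -0.99. In these mice 1 was called higher in liver and 0 lower. Dendritic cell markers, of which 7 were tested, gave 1 call higher in liver and 1 lower in vehicle mice, and 2 and 4 in 7c mice. The 8 endothelial markers gave 4 calls higher in liver and 1 lower in vehicle mice, and 4 and 2 in 7c mice. The part of these cells in the liver against kidney difference of the members was not tested.

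The genes upstream of the members were taken from lists by their place in the pathway. Of 21 interferon genes none passed the filter on low counts. Ifnb1, all the alpha interferons listed and 18 of the 21 in total were at 0 counts in all 20 libraries, where a count of 0 allows up to 3 counts, or at most 0.136 CPM in any library, for counting error alone. If fragments were counted by each end, this limit would be larger. Ifng, Ifnk and Ifnz had at most 3, 10 and 8 counts in any library. Among the receptors, Ifnar1 and Ifnar2, the 2 chains of the type I receptor, were higher in liver by 0.55 ± 0.14 and 1.21 ± 0.19 on the log2 scale in vehicle mice (adjusted p = 0.00516 and 2.86e-04). Ifnlr1, the receptor chain of type III interferon, was lower in liver, at -3.21 ± 0.75 (adjusted p = 0.00381). In 7c mice these values were 0.41 ± 0.09, 1.02 ± 0.17 and -3.66 ± 0.53, all called, and Ifngr1 was also called lower (-0.45 ± 0.14, adjusted p = 0.00867). Of the transducers, Stat3, Tyk2 and Jak1 were called higher in liver in both sets of mice, with log2 fold changes in vehicle mice of 1.62 ± 0.21 for Stat3, 0.65 ± 0.20 for Tyk2 and 0.36 ± 0.13 for Jak1. These are smaller than that of the member Stat2, though the difference between genes was not tested.

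In the machinery that senses nucleic acid and induces interferon, 6 of 14 genes tested were called higher in vehicle liver and none lower. They were Ikbke (a kinase of IRF3, log2 2.35 ± 0.26), Rigi (a sensor of viral RNA ends, 1.34 ± 0.21), Unc93b1 (which carries Toll-like receptors to endosomes, 1.29 ± 0.12), Mavs (the adaptor of the RNA helicases, 0.95 ± 0.16), Tbk1 (0.71 ± 0.17) and Irf5 (0.68 ± 0.17). In 7c mice 7 of 15 were called higher, and Sting1 (the adaptor of cGAS, -0.70 ± 0.20), Tlr9 (-1.13 ± 0.42) and Ticam1 (-0.66 ± 0.14) were called lower. Tlr9 had only 2 to 6 counts per 7c liver. Of 7 negative regulators tested, 4 were called higher in vehicle liver. These were Irf2 (2.18 ± 0.22), which competes for interferon response sites, Socs3 (1.47 ± 0.38), an inhibitor of JAK kinases, Adar (0.59 ± 0.23), which edits double-stranded RNA, and Samhd1 (0.58 ± 0.17). The same 4 were called higher in 7c mice, where Pias1, an inhibitor of STAT signalling, was called lower (-0.30 ± 0.11). The background over all genes tested was 25.7% called higher and 27.7% lower in vehicle mice, and 30.9% and 34.8% in 7c mice.

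No member was called changed by 7c in either tissue. In liver, 0 of 37 members passed an adjusted p of 0.05 (edgeR), beside 0.00666% of the 15012 genes tested, and 1 had an unadjusted p under 0.05, beside 3.76%. The median log2 fold change of 7c against vehicle was 0.04, beside 0.00169 over all genes, and 20 of 37 were above 0, beside 50.4% of genes. The standard errors ran from 0.11 to 0.73 with a median of 0.25, so the precision differed widely between members. No member had its 6 7c livers all above or all below the 4 vehicle livers, which was true of 0.373% and 0.293% of genes. Under the 18 alternatives, which include limma-voom, DESeq2 and the fit without 7c mouse 6, the count stayed at 0, with 0 to 3 members at an unadjusted p under 0.05.

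The member with the smallest p in liver was Igtp. The 7c livers were at 62.7, 56.3, 44.9, 67.6, 38.4 and 53.4 CPM and the vehicle livers at 39.6, 41.9, 35.2 and 37.2 CPM. The livers of 5 of 6 7c mice were above all 4 vehicle livers, and that of 7c mouse 5 lay among them. The difference was 1.38-fold (log2 0.46 ± 0.14, unadjusted p = 0.00566, adjusted p = 1.00, edgeR), and over the alternatives the log2 value ran from 0.39 to 0.55 with adjusted p from 0.641 to 1.00. The window of Igtp printed above holds 1 ISRE core match. All 5 GTPases had values above 0, with a median of 0.16, and the other 4 had an unadjusted p above 0.05. At the other end stood Rsad2, at -0.53 ± 0.31, Oas1g, at -0.40 ± 0.73, and Isg15, at -0.39 ± 0.22 (unadjusted p = 0.107, 0.588 and 0.104, edgeR). The OAS family had 1 of 6 values above 0. Of the pathway genes none was called.

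In kidney, 0 of 36 members tested were called, beside 0.0% of 17749 genes, and 0 had an unadjusted p under 0.05, beside 2.61%. Oas3 did not pass the filter there. With DESeq2 and with the likelihood ratio test 0 were called and 1 had an unadjusted p under 0.05. The median log2 fold change was 0.19 over the members and -0.01 over all genes, with 26 of 36 above 0, beside 49.0% of genes. All 4 IFIT genes and all 5 OAS genes tested were among the 26. No member had non-overlapping groups, beside 0.349% of genes with 7c above and 0.366% with 7c below. Ifi27l2a had the smallest p. Its 7c kidneys were at 2.44, 2.69, 7.00, 4.75, 13.8 and 3.26 CPM and its vehicle kidneys at 1.50, 2.73, 3.23 and 3.51 CPM. The kidney of 7c mouse 5 was the highest, and 3 of the 7c kidneys lay among the vehicle kidneys. The log2 difference was 1.03 ± 0.48 (unadjusted p = 0.0508, adjusted p = 0.997, edgeR), and without 7c mouse 5 it was 0.54. Over 19 alternatives the log2 value of Ifi27l2a ran from 0.54 to 1.19. Its unadjusted p was under 0.05 in 7 of them, and the adjusted p was 0.484 or more in all. Ifi27l2a overlaps Ifi27, and its reads may be shared with that gene. Without the 2 mice whose kidneys had a lower balance of long against short transcripts, 0 members were called, 2 had an unadjusted p under 0.05 and the median was 0.21. Among the pathway genes Sting1 alone had an unadjusted p under 0.05 (log2 0.39 ± 0.18, adjusted p = 0.997, edgeR).

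Some markers of other cells differed between the kidney groups at an unadjusted p under 0.05. The sum of 6 adipocyte markers was 8.64 to 48.8 CPM in the 7c kidneys and 0.492 to 11.3 CPM in the vehicle kidneys, and all 6 had an unadjusted p under 0.05, none of them called. The sum of 6 hepatocyte markers was 77.7 to 283 CPM in the 7c kidneys and 173 to 274 CPM in the vehicle kidneys. This sum is mostly Ttr (148 ± 75.2 CPM in 7c kidney, 156 ± 29.4 CPM in vehicle kidney, mean ± SD), and 5 of the 6 had values below 0, with a median log2 over all 6 of -1.40. Of these 4 had an unadjusted p under 0.05 (Cps1, Cyp3a11, Apoa1 and Alb, the last at 13.1 ± 6.72 CPM against 27.5 ± 7.19 CPM), and none was called. All 8 endothelial markers had values above 0 in kidney, with a median of 0.09 and none at an unadjusted p under 0.05. In liver all 8 were below 0, with a median of -0.16, and Pecam1 (-0.39 ± 0.16) had an unadjusted p under 0.05. The other marker with such a p in liver was Mylpf of the muscle list (3.26 ± 1.39). No marker was called in liver. The macrophage sums overlapped in both tissues (88.9 to 131 CPM in 7c kidney, 96.0 to 132 CPM in vehicle kidney). The part of these cells in the values of the members was not tested.

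The difference between the tissues in the response to 7c, tested as an interaction, was called for 0 of 36 members, beside 0.00706% of 14163 genes, and 1 had an unadjusted p under 0.05, beside 2.49%. That member was Ifit1, whose change in liver less that in kidney was -0.74 ± 0.35 on the log2 scale (unadjusted p = 0.0472, adjusted p = 1.00, edgeR). Over the alternatives its value ran from -1.05 to -0.44, with adjusted p from 0.784 to 1.00. The median interaction over the members was -0.08, and 11 of 36 were above 0, beside 49.8% of genes.

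**Figure D3:**
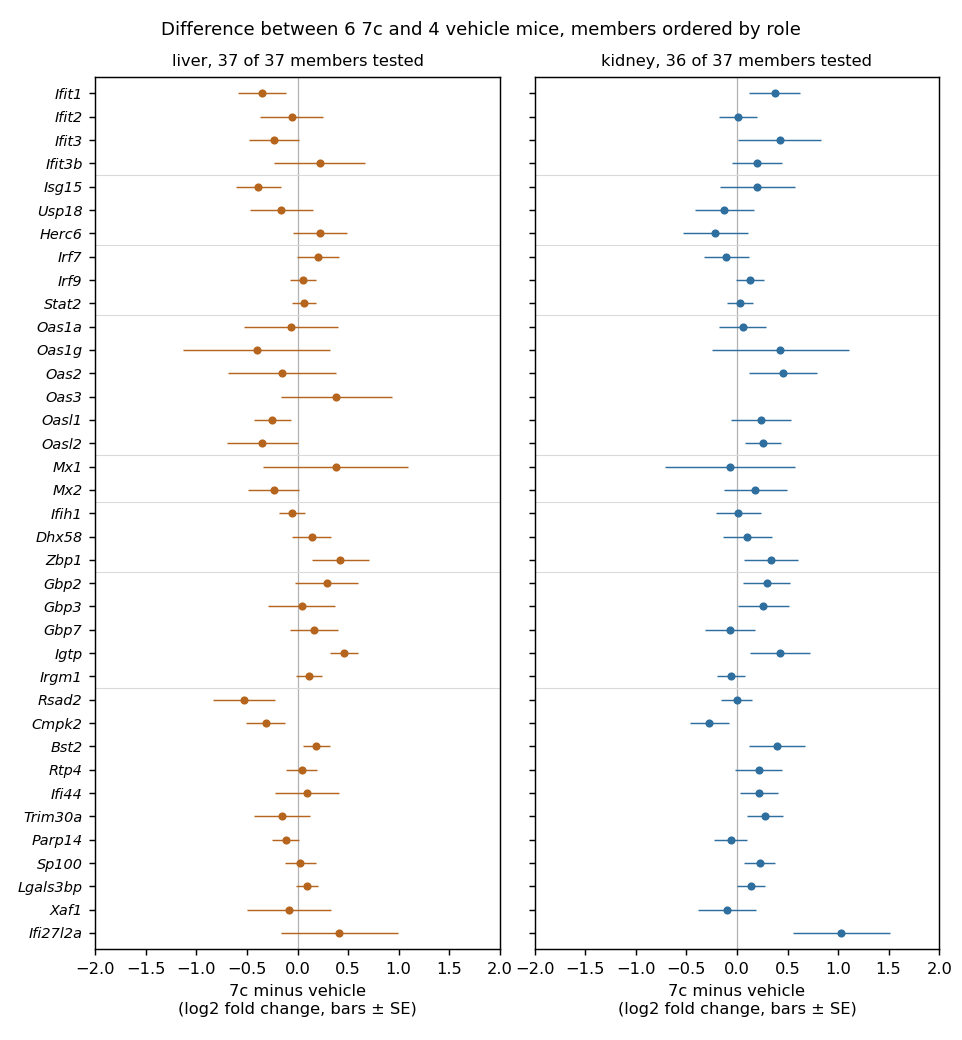
Difference of 7c against vehicle for each member on the log2 scale in liver and in kidney, with bars of ± SE from the fit and members ordered by role, brown for liver and blue for kidney. Oas3 has no point in kidney, where it failed the filter. Igtp in liver lies at 0.46 and Ifi27l2a in kidney at 1.03, and no member was called in either tissue.

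From mouse to mouse the members varied partly together. The log2 levels were centred on the mean of each treatment group, so that correlations over the 10 mice describe differences between mice of 1 group. The median correlation between members was 0.295 over 666 pairs in liver, of which 79.1% were above 0, beside a median of -0.00154 over 1502 genes sampled from those tested. In kidney it was 0.137 over 630 pairs, of which 66.2% were above 0, beside -0.00203 over 1775 genes. The difference between the tissues was not tested. These values share libraries and scaling and carry no test. The member that followed the mean of the others most closely in liver was Rtp4 (r = 0.92), followed by Oas1a (0.89), while Stat2 did not follow it (-0.13). In kidney Gbp2 (0.79), Parp14 (0.74) and Gbp3 (0.74) came first, and Irf9 (-0.33) last. Stat2 and Irf9 encode partners of the complex that binds the ISRE.

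The mean of the members, each scaled to an SD of 1 within groups, was highest in the livers of 7c mouse 1 (0.81, with 34 of 37 members above the mean of the group) and 7c mouse 2 (0.57, 29 members) and lowest in that of vehicle mouse 1 (-0.66, 11 members). In kidney vehicle mouse 3 was highest (0.89, 30 of 36 members), followed by 7c mouse 1 (0.43, 29 members), and vehicle mouse 1 was again lowest (-0.53, 10 members). Outside the 37, the genes most like this mean over the 10 livers were Ntn4 (r = 0.930), Serpinb1a (0.919), Fbn1 (0.906), Slc39a3 (0.894) and Slc16a5 (0.880). Over the 10 kidneys they were Gm51425 (0.934), Ctss (0.908), Lsm5 (0.899), Kcnk2 (0.894) and Ccdc138 (0.869). They were the highest among 15012 genes compared in liver and 17749 in kidney.

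**Figure D4:**
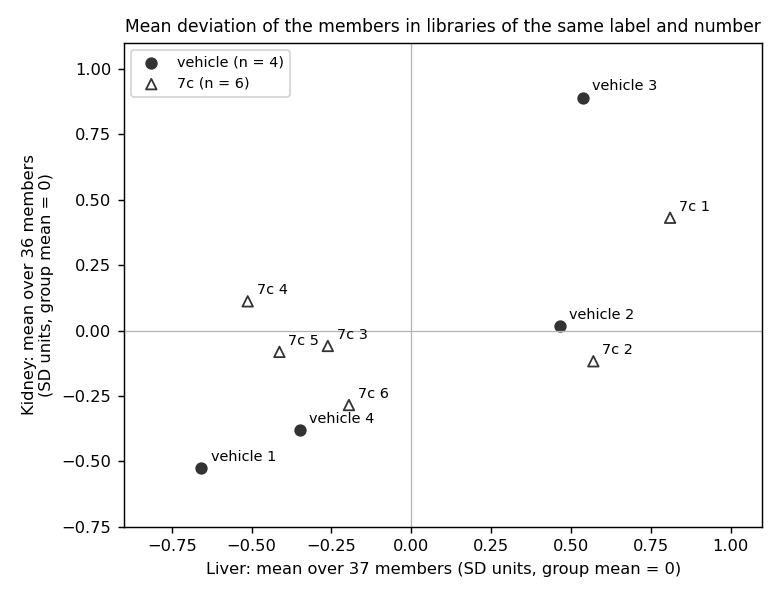
Mean of the members in each mouse, scaled within treatment groups to an SD of 1 for each member, in liver (x axis) and kidney (y axis), with 1 point per mouse number. The mice labelled 7c 1 and vehicle 3 lie high in both tissues, and vehicle 1 lies low in both.

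Some members also varied alike in the liver and kidney of mice with the same number. The labels number the mice within each group in both tissues, and the numbers were taken to name a mouse only for this description. Of 36 members, 5 had a correlation of 0.6 or more over the 10 numbers, beside 7.29% of 14163 genes, and 26 were above 0, beside 52.9% of genes. The median was 0.17 over the members and 0.03 over all genes. Oas1a had 0.83 (Spearman's rho 0.81, and 0.76 without the 2 mice farthest from the median in liver). Xaf1 had 0.81 (Spearman's rho 0.85, and 0.77 without the 2 mice farthest from the median in liver). The values for the other 3 were 0.76 for Oasl1, 0.67 for Rtp4 and 0.62 for Irgm1, and without the 2 farthest mice they were 0.48, 0.59 and 0.60, so Oasl1 and Rtp4 then lay under 0.6. Within the 6 7c mice alone the 5 members, in the same order, had 0.77, 0.76, 0.63, 0.56 and 0.45. At the other end were Mx1 (-0.54), Bst2 (-0.42) and Stat2 (-0.39). No test was made of these correlations.

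In kidney some members, like many other genes, were correlated with the balance of long and short transcripts in the library. This balance is the median of genes with over 6000 exonic bases less that of genes with under 1500. Each gene was taken relative to its own median over the libraries of the tissue. The values of the 2 kidneys that stood apart are given above. Bst2, with 1214 exonic bases, had a correlation with it of -0.93 (rho -0.92, -0.84 without the 2 farthest libraries) over the 10 kidneys, so the kidneys with a lower balance held more Bst2. Isg15, another short gene with 782 exonic bases, had -0.78 (rho -0.79, -0.46 without the 2 farthest libraries), and Lgals3bp -0.69 (rho -0.68, -0.62 without the 2 farthest libraries). Among members that moved the other way, Gbp7 had 0.83 (rho 0.81, 0.71 without the 2 farthest libraries) and Cmpk2 0.79 (rho 0.94, 0.72 without the 2 farthest libraries). Ifit3 had -0.70 (rho -0.64, -0.30 without the 2 farthest libraries), and Xaf1 -0.69 (rho -0.49, 0.01 without the 2 farthest libraries), so both values rest on those 2 libraries. In kidney 5 of 37 members were at -0.6 or below, beside 24.3% of the 17749 genes tested, and 3 at 0.6 or above, beside 25.3%, so the members did not exceed the background. In liver the counts were 1 and 1, beside 6.95% and 6.72% of 15012 genes, namely Bst2 at -0.73 (rho -0.70, -0.45 without the 2 farthest libraries) and Stat2 at 0.60. Without the 2 farthest livers, those of 7c mice 1 and 3, they were 0 and 4 (Irf9, Ifi44, Trim30a and Stat2), beside 6.14% and 7.92%. The points share depth and scaling, and the part of this balance in the level of Bst2 and the others was not tested. Every liver was above every kidney for Bst2, the 2 kidneys that stood apart included.

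**Figure D5:**
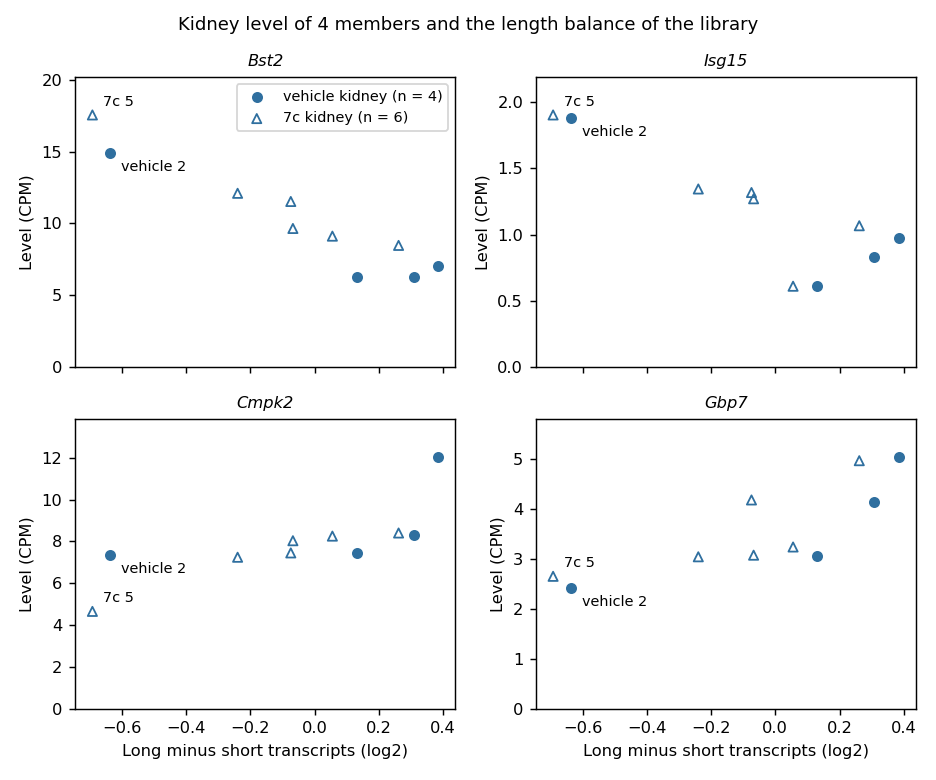
Level of Bst2, Isg15, Cmpk2 and Gbp7 in CPM (y axis) against the long less short balance of the library on the log2 scale (x axis) in the 10 kidneys, with filled circles for the 4 vehicle and open triangles for the 6 7c kidneys. The kidneys of 7c mouse 5 and vehicle mouse 2 lie at -0.69 and -0.64, at the left, and hold the most Bst2 (17.5 and 14.9 CPM) and Isg15 (1.90 and 1.88 CPM).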

How the data were processed

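RNA-seq read counts per Ensembl gene in 20 libraries of mouse liver and kidney were taken as deposited. According to the submitters' processing notes, the authors mapped the reads to GRCm39 with STAR 2.7.11b and counted them with featureCounts 2.0.6, and these counts are not normalized. The annotation release, strand setting and handling of reads with several matches are not given in the sources used here. Depth was 27855849 to 64872451 counts per library. Among counts of 10 to 100, 71.4% to 82.5% were even, and the reason is not known here. If fragments were counted by each end, the counting error would be larger than the counts imply.

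Groups came from the labels. Genes with at least 10 counts in 50% of the libraries of a comparison were kept, scaled by TMM and tested in edgeR 4.0.16 (R 4.3.3) with the quasi-likelihood test, 2-sided, with Benjamini-Hochberg adjustment over all genes tested and a threshold of 0.05. The SE of a log2 fold change was taken from the fold change and its F statistic. The steps were tested on simulated data. Alternatives used RLE size factors, DESeq2 1.42.0, limma 3.58.1 (voom), the likelihood ratio test, other filters, a replicate block, 1 fit of all 20 libraries and the omission of each mouse. Total counts in place of TMM and the omission of 2 mice at once were chosen after seeing the data.

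The members and lists were chosen with earlier results of these data known. Every member was named, with full statistics for those with an unadjusted p under 0.05 in a 7c comparison, at most 8 per comparison, and, between tissues, for the 6 called members with the largest and the 6 with the smallest change and for all not called. The 5 highest and 3 lowest correlations between tissues and the 5 most alike other genes per tissue were named. Ifi27l2a in kidney, Rsad2, Oas1g and Isg15 in liver and the genes set against the length balance were chosen with their values in view. The mice of a group are separate animals. Gene positions and exon lengths came from GENCODE (GRCm39) and promoter windows from RefSeq (GRCm38.p6), matched by symbol or identifier, and 56310 of 57010 identifiers had a match. A gene of the pathway lists is not reported here.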

Additional observations from a re-analysis of the deposited data

Results flagged for a closer look

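Among 148 groups of 4 or 6 libraries, 1 for each member and group, 7 held a library whose value lay far from the rest of its group by Dixon's test. Chance alone flags about 1 in 20 groups, which exceeds this share. In the kidneys, vehicle mouse 3 had 6.88 CPM of Ifit2, beside 4.12 to 4.52 CPM in the other vehicle kidneys, and 1.38 CPM of Oas2, beside 0.706 to 0.805 CPM. The same kidney had the highest mean of all members. The kidney of vehicle mouse 2 had 14.9 CPM of Bst2, beside 6.26 to 7.05 CPM, and that of 7c mouse 5 had 4.66 CPM of Cmpk2, beside 7.25 to 8.40 CPM. These are the 2 kidneys with a lower balance of long against short transcripts, and the part of that balance in these values was not tested. The kidney of 7c mouse 1 had 0.451 CPM of Oas3, beside 0.147 to 0.213 CPM, at few counts. In the livers, vehicle mouse 1 had 7.01 CPM of Dhx58, beside 12.4 to 13.2 CPM, and 7c mouse 1 had 7.51 CPM of Gbp3, beside 3.26 to 4.78 CPM.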

How the results depend on the processing

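The number of members called, higher and lower together, did not move by over 1.5 times under any alternative. The lower calls alone moved more, from 1 to 4 in vehicle mice and from 3 to 9 in 7c mice with total counts, to 0 in vehicle mice without mouse 1 or mouse 3, and to 1 in 7c mice without mouse 6. For 7c against vehicle in liver, in kidney and for the interaction it was 0 throughout. Between the tissues it ran from 20 to 26 in vehicle mice and from 24 to 30 in 7c mice, and with 1 mouse left out from 21 to 24 and from 24 to 29. The replicate block, a fit with the mouse number as a term, gave 22 members higher and 1 lower in vehicle liver, 24 and 3 in 7c liver, and 0 in the comparisons of 7c with vehicle. Within a tissue this block ties 7c and vehicle mice that are different animals and share only a number. The labels do not say that a number marks 1 animal in both tissues. The deviations of libraries with the same number had correlations of 0.0115 to 0.259, and 8 of 10 livers were most like the kidney of their own number, a hint from the data only. The sign turned for members that were not called between the vehicle tissues. Oasl2 had a log2 fold change of -0.055 with RLE size factors and with DESeq2, -0.086 with limma-voom, -0.018 with no filter, -0.11 with the replicate block and -0.56 with total counts. With total counts Ifit3b was at -0.044, Gbp3 at -0.26, Rsad2 at -0.12 and Cmpk2 at -0.49. With 1 vehicle mouse left out, Oasl2 ran from -0.28 (without mouse 3) to 0.16, Gbp2 from -0.38 to 0.0075 (without mouse 3), Gbp3 from -0.026 (without mouse 2) to 0.48, Cmpk2 from -0.10 (without mouse 2) to 0.32 and Sp100 from -0.11 to 0.056 (without mouse 3). The cause was not tested. Low counts limit the precision for Oas1g, Oas3 and Mx1.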
